A study of Mus musculus with 8 samples.

Results

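The translation factors were read in RNA-seq libraries of RAW264.7, an established macrophage-like cell line of the mouse, to ask whether the mRNAs of the protein synthesis machinery differed after exposure to recombinant FSTL1. Members were the genes of the deposited count table whose symbol begins with Eif1 to Eif6 or with Eef. The eIF2 kinases (Eif2ak), the eIF4E-binding proteins (Eif4ebp) and pseudogene entries were left out. The rule gave 81 genes of 22013 (0.37%) and used no measured value. The control cells received PBS and the treated cells received FSTL1 protein (rFSTL1) at 100 ng/mL for 24 h, and 4 libraries represented each condition. All libraries came from 1 established line with no other allele or agent named in the labels. The labels do not say whether the libraries of a group came from separate cultures, so the p-values measure the spread between these libraries, which may be technical. As bulk RNA was read, fewer expressing cells and less RNA per cell cannot be told apart.

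Protein synthesis starts when a small ribosomal subunit, loaded by eIF2 with the initiator tRNA, is brought to the capped end of an mRNA by the eIF4 proteins and scans to a start codon. The many-subunit eIF3 holds the complex together, eIF1 and eIF1A police the choice of start codon, and eIF5 and eIF5B complete the joining of the large subunit. The guanine nucleotide on eIF2 is then renewed by eIF2B, a step blocked when stress kinases phosphorylate the alpha subunit of eIF2. During elongation, eEF1A delivers each aminoacyl-tRNA and eEF2 moves the ribosome by a codon. Activated macrophages make large amounts of secreted protein, and the control of these factors is known mainly at the level of phosphorylation and of translation, neither of which mRNA counts measure.

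Total counts were 15062023 to 20234477 per library, and the members held 2.73% to 2.88% of the counts of each. Of 10 macrophage markers, 9 had a mean over 1 CPM (a read count scaled by library size with edgeR's TMM factors). Their summed level was 4706 to 4853 CPM in the PBS libraries and 4703 to 4984 CPM in the rFSTL1 libraries. Among the markers of T cells, B cells, neutrophils, fibroblasts, endothelium, epithelium and hepatocytes, 0 had a mean over 1 CPM, and the summed level of a list was at most 1.28 CPM in a library. Within the rFSTL1 group the libraries stood apart from each other. The chi-square per degree of freedom between their counts was 4.52 to 19.1, against 3.04 to 4.22 between PBS libraries, and it was largest between rFSTL1 replicates 2 and 4.

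The translation factors as a group stayed close to their PBS levels. None of the members passed the test, and 46 of 59 tested members (78.0%) lay within 0.1 of zero on the log2 scale, where 61.4% of all tested genes did. The members were also measured more precisely, with a median standard error of 0.05 against 0.069 for all tested genes. The larger share near zero is therefore not read as a trait of the members. A gene was tested when it passed edgeR's expression filter, which 59 members did. By the quasi-likelihood test of edgeR, adjusted by the Benjamini-Hochberg method over all 10748 tested genes, 0 of 59 members had an adjusted p under 0.05, where the same test called 37 genes in all (0.344% of those tested), 35 of them higher (0.326%) and 2 lower (0.0186%). Against a background share this low, a count of 0 among 59 genes is near the background. At an unadjusted p under 0.05 there were 5 members (8.47%), against 15.9% of all tested genes. DESeq2 called 0 members, against 2.12% of the genes for which it gave an adjusted p. With sample quality weights, limma's voom called 1 member, Eif3k, against 4.22% of all genes.

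The median log2 fold change (rFSTL1 over PBS) was -0.002 over the 59 members and 0.006 over all tested genes. It was positive for 29 members and negative for 30. Only Eif2a had groups that did not overlap, with every rFSTL1 library below every PBS library. Of all tested genes, 3.53% did so in that direction and 4.63% in the other. The fold changes ran from -0.38 for Eef1akmt3 to 0.20 for Eif3k. The lower end turned on 1 library, since Eef1akmt3 was at -0.12 without rFSTL1 replicate 3, which read 0.576 CPM, and voom gave it -0.79. Fold changes this near to zero depended on the fit, and 51 of the 59 moved by over 1.5 times or changed sign when each library's dependence on transcript length and GC content was removed. Without rFSTL1 replicate 4, 41 did so, and 47 did so in at least 1 of the 8 fits that left out a library. For 53 members the 95% interval of the fold change lay inside a 1.2-fold change in either direction (0.263 on the log2 scale), so that a larger difference was outside their intervals. The intervals of the other 6 reached past it, and the widest, from -1.03 to 0.28, was that of Eef1akmt3 at 1.55 CPM under PBS.

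**Figure D1:**
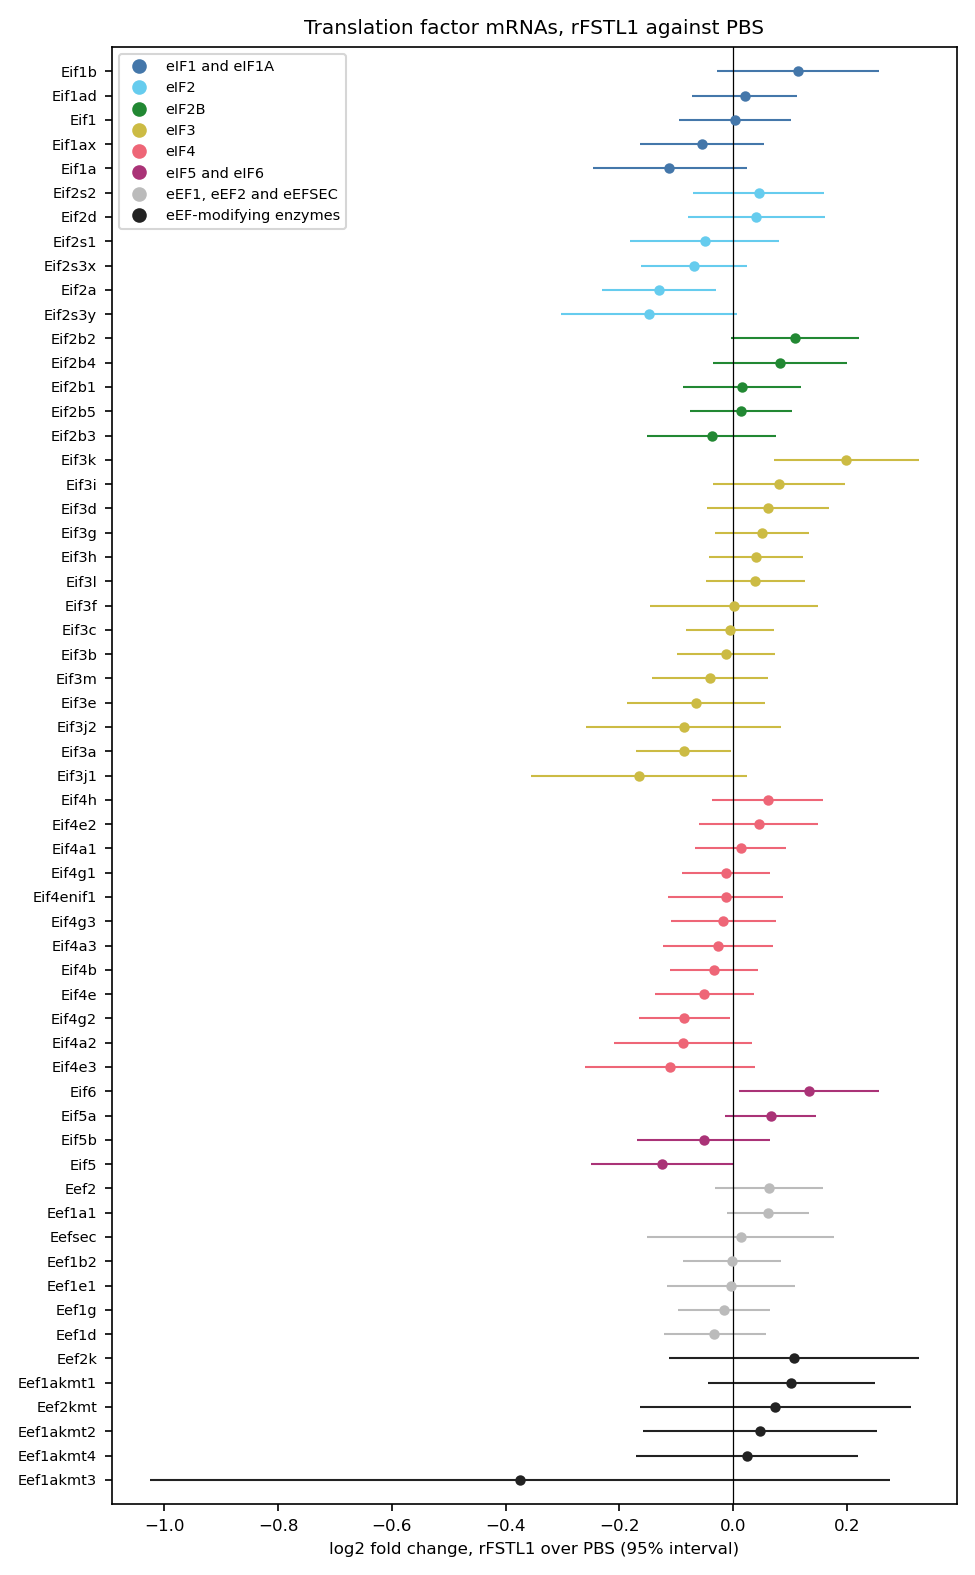
Log2 fold change of each tested translation factor mRNA, rFSTL1 over PBS (x axis), with points coloured by role and lines giving the 95% interval from edgeR. The intervals of 5 of the 59 members do not reach 0, and that of Eef1akmt3 is the widest.

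Start codon factors came first in the order of initiation. Of 21 members of the Eif1 series, 5 were tested, with a median log2 fold change of 0.003. Eif1, which keeps the scanning ribosome open until a start codon is met, had 234 ± 2.42 CPM (SD, n = 4) under PBS and 234 ± 15.4 CPM under rFSTL1. Its mean hardly moved, and its spread was wider under rFSTL1, where replicate 2 read 255 CPM and the others 222 to 236 CPM. Eif1a, which encodes eIF1A, and its X-linked relative Eif1ax were at -0.11 (standard error 0.06) and -0.05 (standard error 0.05). Without rFSTL1 replicate 4 these were -0.06 and -0.015, and with the length and GC trend removed -0.02 and 0.06. The remaining 16 were Eif1ad relatives at or near 0 counts.

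eIF2 binds the initiator tRNA, and 6 genes of its group, Eif2a and Eif2d included, were tested with a median of -0.06 (-0.006 with the length and GC trend removed). Eif2s1, for the alpha subunit that stress kinases phosphorylate, read 332, 338, 323 and 325 CPM in PBS replicates 1 to 4. In rFSTL1 replicates 1 to 4 it read 343, 349, 306 and 275 CPM. The rFSTL1 libraries thus lay on both sides of the PBS libraries, and the fold change was -0.05 (standard error 0.06). Eif2s2, for the beta subunit, had a fold change of 0.04 (standard error 0.05). Eif2d, which can place tRNA on the ribosome without eIF2, had 0.04 (standard error 0.06).

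Eif2a, which encodes a separate tRNA-binding protein and not the alpha subunit of eIF2, was the member whose groups did not overlap. It read 103, 114, 108 and 104.5 CPM in PBS replicates 1 to 4 and 98.0, 101.5, 99.0 and 93.6 CPM in rFSTL1 replicates 1 to 4. The highest rFSTL1 library lay just under the lowest PBS library. The log2 fold change was -0.13 (standard error 0.05, 95% interval -0.23 to -0.03), with an adjusted p of 0.212 by edgeR. The two-sided exact permutation p was 0.0286, the smallest that 4 against 4 libraries allow. Groups that do not overlap always give this exact p, so it adds nothing to the gap itself. Without rFSTL1 replicates 3 and 4 the fold change was -0.11, and with the length and GC trend removed it was -0.08 and the groups overlapped.

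The gamma subunit of eIF2 is encoded on both sex chromosomes, and both copies were expressed. Their coding sequences are equally long, 1419 bases, and 86.3% identical, with no identical run above 34 bases. The first 90 coding bases, from the start codon, are shown in the 5′ to 3′ direction because they show how the copies differ at the level of reads. Capitals mark the 16 bases that differ, and both come from the GENCODE vM21 transcripts of the mouse (chromosomes X and Y).
Eif2s3x: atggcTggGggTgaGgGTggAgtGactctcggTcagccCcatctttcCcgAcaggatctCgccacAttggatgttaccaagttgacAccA
Eif2s3y: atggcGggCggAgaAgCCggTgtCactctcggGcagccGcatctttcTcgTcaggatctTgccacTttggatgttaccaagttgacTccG

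Eif2s3x held 73.6% ± 1.51 (SD, n = 4) of the transcripts of the pair per length under PBS and 74.6% ± 1.06 under rFSTL1. The shares were 71.6% to 75.1% in PBS libraries and 73.7% to 76.1% in rFSTL1 libraries, so the groups overlapped. The fold changes were -0.07 for Eif2s3x (standard error 0.04) and -0.15 for Eif2s3y (standard error 0.07). Without PBS replicate 2 that of Eif2s3y was -0.09, and without rFSTL1 replicate 4 those of Eif2s3x and Eif2s3y were -0.04 and -0.09. With the length and GC trend removed they were -0.02 and -0.05. All counts of both genes were whole numbers.

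All 5 subunits of eIF2B, the exchange factor of eIF2, were tested, with a median of 0.015, and 4 were positive (-0.003 and 1 with the length and GC trend removed). Eif2b2, for the beta subunit, read 51.1, 47.6, 48.95 and 45.1 CPM in PBS replicates 1 to 4 and 52.2, 53.2, 50.9 and 51.8 CPM in rFSTL1 replicates 1 to 4. A single PBS library, replicate 1, reached into the range of the rFSTL1 libraries. The fold change was 0.11 (standard error 0.05, adjusted p = 0.329 by edgeR, exact permutation p = 0.0571) and 0.03 with the length and GC trend removed. Eif2b4 had 0.08, Eif2b1 0.01, Eif2b5 0.01 and Eif2b3 -0.04.

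The 14 genes of eIF3, the scaffold of the initiation complex, had a median of -0.002, with 7 positive and 7 negative. With the length and GC trend removed the median was -0.01 and 4 were positive. Eif3k, for a small peripheral subunit, read 94.8, 88.2, 90.3 and 87.7 CPM in PBS replicates 1 to 4 and 91.3, 101, 108 and 114 CPM in rFSTL1 replicates 1 to 4. The first rFSTL1 library lay inside the PBS range, and the other 3 lay above it. Its fold change was the largest positive one among the members, 0.20 (standard error 0.06, 95% interval 0.07 to 0.33, unadjusted p = 0.00443 and adjusted p = 0.156 by edgeR). The exact permutation p was 0.0571. Voom gave it an adjusted p of 0.0345, and edgeR without rFSTL1 replicate 1 gave a fold change of 0.25 with an adjusted p of 0.0433. It was 0.09 without rFSTL1 replicates 3 and 4, and 0.09 once the dependence on transcript length and GC content was taken out of each library. Over all the alternatives its adjusted p from edgeR, DESeq2 or voom ran from 0.0345 to 0.622.

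Eif3a, for the largest eIF3 subunit, read 921.5, 946, 949.9 and 959 CPM in PBS replicates 1 to 4. The rFSTL1 libraries read 939, 896, 866 and 857 CPM in the same order. Replicate 1 of rFSTL1 lay inside the PBS range and the other 3 lay below it, with a fold change of -0.09 (standard error 0.04, adjusted p = 0.297 by edgeR). It was -0.04 without rFSTL1 replicates 3 and 4 and -0.04 with the trend removed. The core subunits Eif3b and Eif3c were both at -0.01 (standard error 0.04). With the trend removed Eif3b was at -0.08 (standard error 0.03, adjusted p = 0.217 by edgeR), with every rFSTL1 library below every PBS library, and Eif3c at -0.01. Eif3e, Eif3f and Eif3h, further subunits, had -0.07, 0.002 and 0.04.

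Eif3j1 and Eif3j2 could not be read apart with the same ease as the Eif2s3 pair. Their coding sequences share an unbroken run of 784 identical bases, and all 8 libraries held fractional counts of each gene, so how reads were split between them is uncertain. Together they had 152 ± 11.4 TPM (SD, n = 4) under PBS and 140.2 ± 15.2 TPM under rFSTL1 (TPM is a count divided by transcript length and scaled to the same total in every library). Single fold changes were -0.17 for Eif3j1 and -0.09 for Eif3j2, with standard errors of 0.09 and 0.08. Of the 59 tested members, 14 had a fractional count in some library, among them Eif1, Eif4a2, Eif5 and Eif5b in every library.

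Of 15 members of the Eif4 series, 12 were tested, with 3 positive and 9 negative (median -0.022), where 52.0% of all tested genes were positive. With the length and GC trend removed 4 were positive, with a median of -0.018. Eif4e, for the protein that binds the mRNA cap, had 248 ± 2.77 CPM (SD, n = 4) under PBS and 239.7 ± 9.90 CPM under rFSTL1, a fold change of -0.05 (standard error 0.04). Eif4g1, the scaffold that joins the cap to eIF3, had -0.01, its helicase partner Eif4a1 0.01, and Eif4b, which assists that helicase, -0.03, each with a standard error of 0.04. Eif4g2, for a scaffold that lacks the binding site for eIF4E, read 1834, 1888, 1816 and 1879 CPM in PBS replicates 1 to 4 and 1826, 1763, 1708 and 1690 CPM in rFSTL1 replicates 1 to 4. Replicate 1 of rFSTL1 again lay inside the PBS range, with the other 3 below it. The fold change was -0.09 (standard error 0.04, adjusted p = 0.285 by edgeR, exact permutation p = 0.0571). It was -0.05 without rFSTL1 replicates 3 and 4 and -0.01 with the length and GC trend removed. Eif4e3, a cap-binding relative, had -0.11 (standard error 0.07) at 26.95 CPM under PBS.

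The Eif5 and Eif6 series, which includes the joining factors, was represented by Eif5, Eif5a, Eif5b and Eif6. Eif6, which keeps free large subunits from joining, read 82.3, 83.5, 82.9 and 79.1 CPM in PBS replicates 1 to 4. The rFSTL1 libraries read 81.3, 84.9, 94.9 and 98.1 CPM in the same order. Replicates 3 and 4 of rFSTL1 were the high ones, replicate 2 lay just above the PBS libraries and replicate 1 lay within the PBS range. The fold change was 0.13 (standard error 0.06, adjusted p = 0.279 by edgeR) and 0.02 without replicates 3 and 4, or 0.03 with the length and GC trend removed. Eif5, which triggers GTP hydrolysis by eIF2, had a fold change of -0.12 (standard error 0.06), which was -0.03 without the same libraries and -0.05 with the trend removed, and its counts were fractional. Eif5a, the hypusine-bearing factor that helps ribosomes over stalling peptides, had 0.07 (standard error 0.04), and -0.02 with the trend removed. Eif5b had -0.05 (standard error 0.06).

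As a summed group the elongation factors were the most abundant, mainly through Eef1a1. Eef1a1 read 8509, 8243, 8128 and 8014 CPM in PBS replicates 1 to 4 and 8766, 8299, 8553 and 8708 CPM in rFSTL1 replicates 1 to 4. The rFSTL1 libraries lay above those of PBS except replicate 2, which was inside their range. The fold change was 0.06 (standard error 0.03, adjusted p = 0.392 by edgeR, exact permutation p = 0.0571). Eef2 had 3102 ± 41.3 CPM (SD, n = 4) under PBS and 3241 ± 222 CPM under rFSTL1, with a fold change of 0.06 (standard error 0.05). Its value became -0.02 without rFSTL1 replicates 3 and 4. The exchange complex of eEF1A (Eef1b2, Eef1d and Eef1g) was at -0.002, -0.03 and -0.02, each with a standard error of 0.04. With the length and GC trend removed the values were 0.01, -0.10 and -0.06, and the groups of Eef1d no longer overlapped (adjusted p = 0.237 by edgeR). Eef1e1, which belongs to the tRNA synthetase complex, had -0.004, and Eefsec, which delivers selenocysteine, had 0.01.

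Enzymes that modify elongation factors were the scarcest tested group, and 5 of 6 had a positive value, against 52.0% of all tested genes (median 0.061). With the length and GC trend removed 4 were positive, with a median of 0.01. Eef2k, the kinase that slows eEF2, read 11.2, 9.63, 11.2 and 10.7 CPM in PBS replicates 1 to 4 and 9.89, 11.4, 11.4 and 13.1 CPM in rFSTL1 replicates 1 to 4. The groups overlapped, with a fold change of 0.11 (standard error 0.10), which was 0.03 without rFSTL1 replicate 4. The methyltransferase Eef1akmt1 had 0.10 (standard error 0.07), and 0.01 with the length and GC trend removed. At these levels a change of 1.2-fold was inside the interval for Eef2k, whose upper bound was 0.33.

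**Figure D2:**
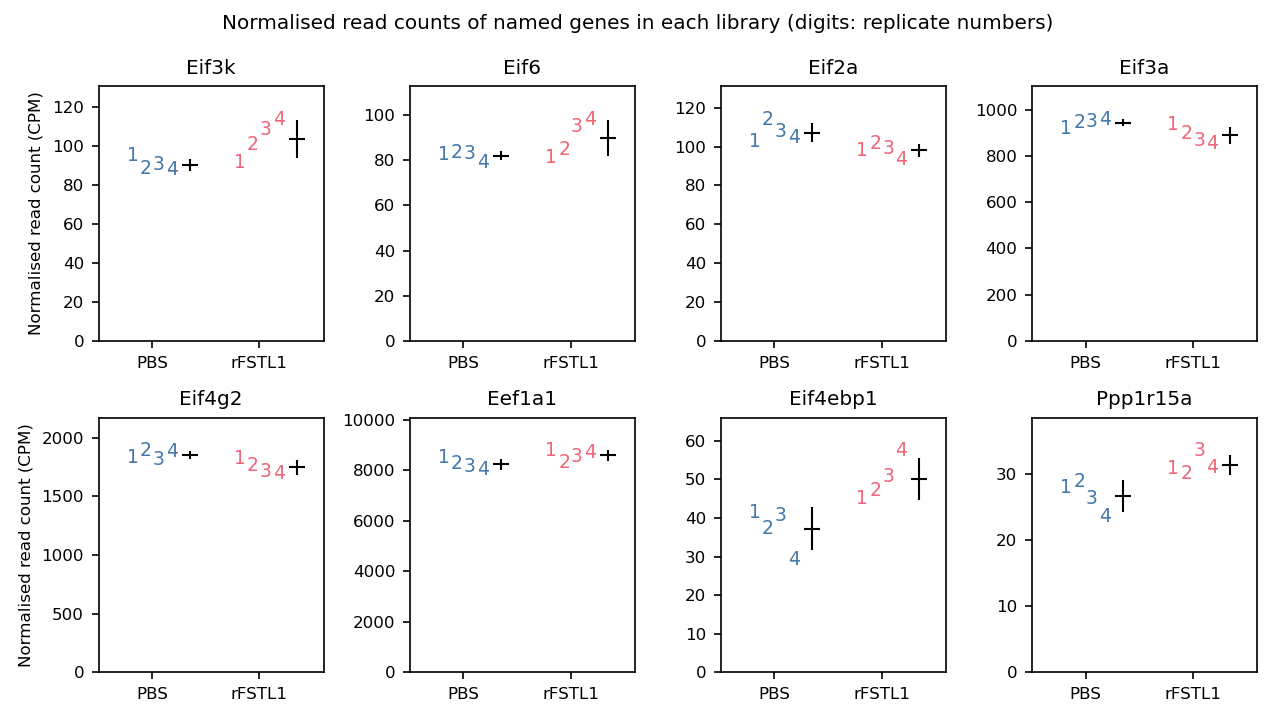
Normalised read counts (CPM, y axis from 0) of 6 translation factors, with Eif4ebp1 and Ppp1r15a, which are not factors themselves. Each digit is the replicate number of a library placed at its value, and the bar beside each group is the mean ± SD of 4 libraries. Groups do not overlap for Eif2a, Eif4ebp1 and Ppp1r15a, and rFSTL1 replicate 1 lies in the PBS range for Eif3k, Eif6, Eif3a and Eif4g2.

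Levels between genes were compared per length, in TPM computed with the longest protein-coding GENCODE transcript. The members together made up 28210 ± 419 TPM (SD, n = 4) under PBS and 28430 ± 1141 TPM under rFSTL1. Elongation factors supplied 14820 TPM of that sum under PBS, eIF4 4801, eIF3 4172, the Eif5 and Eif6 series 2166 (mostly Eif5a, which also acts in elongation), eIF2 with Eif2a and Eif2d 961 (820 for the eIF2 subunits alone), the start codon factors 829.5, eIF2B 308 and the modifying enzymes 155.5. Eef1a1 alone had 10640 ± 243 TPM under PBS and 10960 ± 522 TPM under rFSTL1. Eif4a1 (2341 ± 57.7 TPM), Eef2 (2333 ± 44.6), Eif5a (1743 ± 21.5) and Eef1g (1140 ± 45.6) followed under PBS. Eef1a1 stood clear of the others, while the PBS libraries of Eif4a1 and Eef2 overlapped. Below Eif4g2, at 539 ± 11.0 TPM, each of the next 9 neighbours in the order overlapped with the one after it, from Eif4g1 down to Eif3i. The tested member with the lowest level was Eef1akmt3, at 1.32 ± 0.278 TPM.

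**Figure D3:**
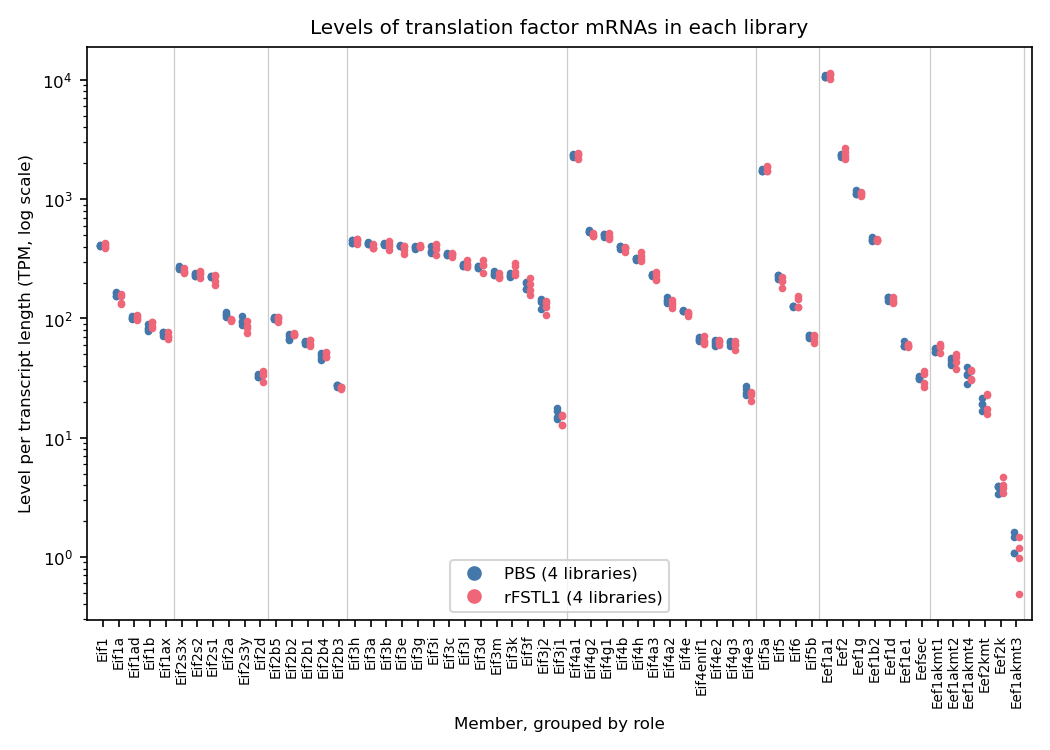
Level per transcript length (TPM, log axis) of each tested member in each library, grouped by role and ordered by the PBS mean within a role. Blue points are the 4 PBS libraries and red points the 4 rFSTL1 libraries. Eef1a1 is the highest at 10640 TPM under PBS, and Eef1akmt3 is the lowest at 1.32 TPM.

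The choice between paralogs was likewise close in both conditions, with overlapping groups in each pair that had expression of both genes. Eif4a1 took 94.3% ± 0.313 (SD, n = 4) of the Eif4a1 and Eif4a2 transcripts under PBS and 94.6% ± 0.509 under rFSTL1. Eif1 took 83.1% ± 0.935 against Eif1b under PBS and 81.9% ± 0.314 under rFSTL1. Eif4e took 64.9% ± 1.3 against Eif4e2 under PBS and 63.4% ± 1.70 under rFSTL1. Eif4g1 and Eif4g2 were near balance per length, with Eif4g1 at 48.1% ± 0.906 under PBS and 49.4% ± 1.33 under rFSTL1. That balance depends on the transcripts used, of 5638 bases for Eif4g1 and 7995 for Eif4g2. In counts Eif4g2 was ahead under PBS, with 1854 CPM against 1214 CPM for Eif4g1. Of the tissue-restricted relatives, Eef1a2, the muscle and neuron form of eEF1A, had 12 counts summed over all 8 libraries, Eif5a2 had 2 and Eif4e1b had 1. The 22 untested members never exceeded 5.72 counts in a library, and 13 of them were at 0 in all.

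Some translation factor mRNAs begin with a run of C and T, the TOP motif, through which nutrient signalling governs their translation. The 9 members widely described as TOP mRNAs had a median log2 fold change of -0.002, 0 of 9 with an unadjusted p under 0.05, which with so few genes is near the background of 15.9%. The sequences around the RefSeq transcription start (GRCm38.p6, 20 bases before to 20 from the start, 5′ to 3′) are shown for the 5 TOP members that had an entry, to let the runs be compared. Capitals mark the longest run of C and T in each window, the first where runs tie.
Eef1a1: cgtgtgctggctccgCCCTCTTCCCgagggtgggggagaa
Eef1b2: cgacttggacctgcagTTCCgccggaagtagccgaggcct
Eef2: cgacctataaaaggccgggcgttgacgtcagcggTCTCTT
Eif3f: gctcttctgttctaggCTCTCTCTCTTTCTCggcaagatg
Eif4b: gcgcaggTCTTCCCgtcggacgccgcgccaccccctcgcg

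The windows lie at chr9:78481705-78481744 on the minus strand (Eef1a1), chr1:63176811-63176850 on the plus strand (Eef1b2), chr10:81176611-81176650 on the plus strand (Eef2), chr7:108934395-108934434 on the plus strand (Eif3f) and chr15:102073753-102073792 on the plus strand (Eif4b). A run of at least 8 C or T bases on the mRNA-sense strand was present in 11 of the 46 tested members with an entry (23.9%) and in 18.4% of the 27025 genes of the RefSeq table. Of these 5 TOP members it was found in 2, Eef1a1 and Eif3f. Runs were counted anywhere in the window, also before the RefSeq start, and the start used in these cells was not read. A run is thus not shown to be a TOP motif, and its absence is not shown to be the lack of one. The longest runs of Eef1b2, Eef2 and Eif4b had 4, 6 and 7 bases, and that of Eef2 lay at the edge of the window. In the order shown, the fold changes of the 5 were 0.06, -0.002, 0.06, 0.002 and -0.03.

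The members' small differences moved with properties of their transcripts. The log2 fold change was higher at higher GC content over the 59 members (Pearson r = 0.57, Spearman rho = 0.68), as it did over 10719 tested genes (r = 0.41, rho = 0.54). It was lower for longer transcripts, with r = -0.42 and rho = -0.50 against log2 length over the members and -0.23 and -0.28 over all genes. These points share the same 8 libraries, so the correlations are descriptions. Of the 30 members at or above the median GC content of 50.2%, 21 had a positive fold change, and of the 29 below it, 21 had a negative one, so that 9 and 8 members had the other sign. Eif6 (57.9% GC), Eef2 (57.0%) and Eif3k (53.9%) were among the former, and Eif2s3y (39.5%), Eif1a (40.0%) and Eif5 (41.7%) among the latter.

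Deviations from the PBS mean, on the log2(CPM + 1) scale, showed which libraries carried the relation. In rFSTL1 replicates 3 and 4 the correlation with GC content over the members was 0.55 and 0.84 (rho 0.71 and 0.80). In rFSTL1 replicates 1 and 2 it was -0.19 and -0.07 (rho -0.16 and -0.09). PBS replicates 1 and 2 had 0.47 and -0.46, over a narrower range of deviations. In 18 of the 30 members of higher GC content, rFSTL1 replicates 3 and 4 both lay above replicates 1 and 2, and in 17 of the other 29 both lay below. Over all the members this made 32.2% above and 32.2% below, against 27.4% and 26.8% of all tested genes, for a split of libraries that was chosen after seeing the data.

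The spread of the rFSTL1 group was larger than that of the PBS group in 44 of the 59 members (74.6%), against 65.6% of all tested genes. The median SD on the log2 scale was 0.043 under PBS and 0.074 under rFSTL1 for the members, and 0.075 and 0.102 for all tested genes. With the length and GC trend removed from each library, 5 members had groups that did not overlap. Eif2s2 was the 1 higher, against 3.11% of all tested genes, and Eif3b, Eif4a3, Eif4b and Eef1d were the 4 lower, against 3.71%. In that fit edgeR called 0 members and 0.791% of all genes. The lowest adjusted p among members was then 0.127, for Eif2s2, whose fold change was 0.11 (standard error 0.03). Its adjusted p ran from 0.127 to 0.924 over the alternatives. The part of base composition and length in the members' differences was not tested beyond this.

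**Figure D4:**
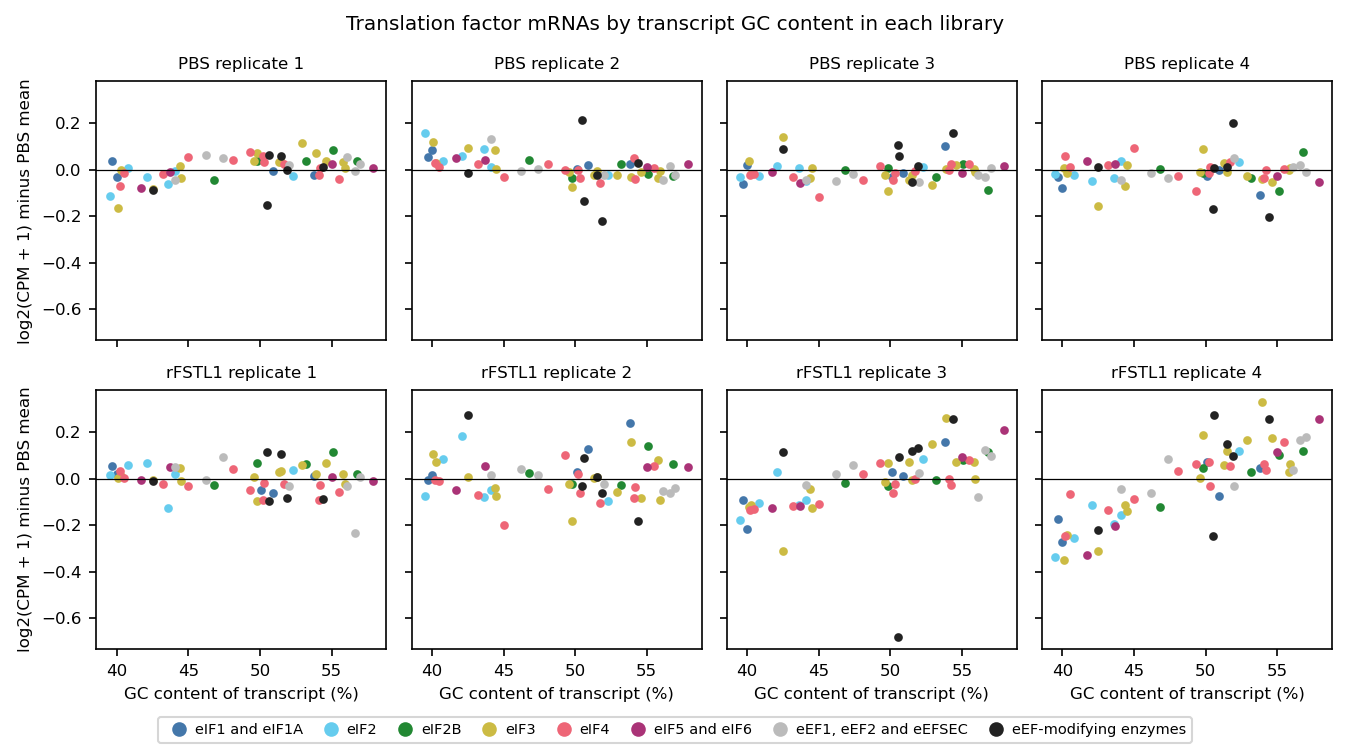
Deviation of each tested member from its PBS mean (y axis, log2(CPM + 1)) against the GC content of its transcript (x axis, percent), 1 panel per library, coloured by role. Points slope upward in rFSTL1 replicates 3 and 4 (r = 0.55 and 0.84) and show little slope in rFSTL1 replicates 1 and 2 (r = -0.19 and -0.07).

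The regulators that act on these factors were read beside them, although the rule left them out. Eif4ebp1, the repressor that holds eIF4E away from the scaffold until mTOR phosphorylates it, read 41.5, 37.3, 40.6 and 29.4 CPM in PBS replicates 1 to 4 and 44.96, 47.1, 50.8 and 57.4 CPM in rFSTL1 replicates 1 to 4. Every rFSTL1 library lay above every PBS library. The log2 fold change was 0.43 (standard error 0.10, 95% interval 0.22 to 0.63), with an adjusted p of 0.0673 by edgeR. The exact permutation p was 0.0286, as it is for any groups of 4 that do not overlap. DESeq2 gave an adjusted p of 0.00507 and voom 0.0169, and the fold change was 0.43 with the length and GC trend removed (adjusted p = 0.0217 by edgeR). It was 0.30 without rFSTL1 replicates 3 and 4 (adjusted p = 0.298 by edgeR). Its adjusted p ran from 0.00507 to 0.298 over the alternatives. Eif4ebp2, its relative, had 0.04 (standard error 0.05), with 0.07 without rFSTL1 replicate 1 and -0.04 without rFSTL1 replicates 3 and 4.

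Among the eIF2 kinases, Eif2ak1, Eif2ak2 and Eif2ak3 (the haem-regulated kinase, PKR and PERK) were at -0.07, -0.10 and -0.08, and Eif2ak4 (GCN2) had 0.14, with standard errors of 0.05 to 0.08. Eif2ak2 was at -0.19 without rFSTL1 replicate 2 (adjusted p = 0.0853 by edgeR) and at -0.03 without replicate 4, and Eif2ak3 was at -0.01 without PBS replicate 3 and -0.04 without rFSTL1 replicate 2. Leaving out rFSTL1 replicate 4 brought Eif2ak4 to 0.09. None passed the test over all 8 libraries, where the lowest adjusted p from edgeR was 0.28, for Eif2ak4. Of 32 tested partners of the factors, such as poly(A)-binding, release and hypusine enzymes, 0 passed the test. In 3 the groups did not overlap, 1 higher and 2 lower, which is near the background of 4.63% and 3.53%, and they are named for that after their values were seen. Ppp1r15a, a subunit of the phosphatase that restores eIF2, had 0.23 (standard error 0.07), Ppp1r15b, its constitutive counterpart, had -0.11 (standard error 0.04), and Ddx3x, a helicase of scanning, had -0.17 (standard error 0.05). Ddx3x had an adjusted p of 0.137 by edgeR, 0.0398 by DESeq2 and 0.0181 by voom, and its fold change was -0.08 with the length and GC trend removed and -0.10 without rFSTL1 replicates 3 and 4. Ppp1r15a had an adjusted p of 0.167 by edgeR, 0.114 by DESeq2 and 0.0422 by voom. The adjusted p ran up to 0.436 for Ddx3x and 0.498 for Ppp1r15a over the alternatives. Among 11 mitochondrial translation factors 0 passed the test, and Guf1, a mitochondrial elongation factor named on the same ground, had -0.11 (standard error 0.05), and -0.04 with the trend removed.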

How the data were processed

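RNA-seq of 8 RAW264.7 libraries (4 PBS, 4 rFSTL1) was analysed, grouped by the sample labels. The authors deposited expected counts (estimated counts) for 22013 genes without normalization, of which 13.0% of nonzero values were not whole, and all were rounded. The design had assumed whole raw counts, and the same count tests were kept. The submitters' processing notes name Bowtie2 2.2.8, HISAT2, StringTie 1.3.1 and DESeq2, and the counting rule for reads shared between paralogs is not given in the sources used here. The members and lists were chosen with earlier results of these data known.

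Genes were kept by filterByExpr (minimum count 10), scaled by TMM and compared with edgeR 4.0.16 (glmQLFit, glmQLFTest) in R 4.3.3, with a Benjamini-Hochberg threshold of 0.05 over 10748 genes. Single members were also compared by a two-sided exact permutation test over 70 assignments on log2(CPM + 1). The expected counts were divided by the longest protein-coding GENCODE vM21 transcript for TPM. Genes were named by a rule: those with an adjusted p under 0.05, the 6 largest fold changes in each direction, members with no overlap between groups, and a fixed list of core factors and regulators. Other members named to complete a role, and the partners named for groups that did not overlap, were chosen after their values were seen. Alternatives were DESeq2 1.42.0, limma 3.58.1 voom with quality weights, other scalings, no expression filter, a threshold of 0.1, taking out, in each library, the dependence on length and GC content (splines with 4 degrees of freedom), a replicate block and leaving out each library. Leaving out rFSTL1 replicates 3 and 4 together was added after seeing the data. The edgeR step was checked on simulated counts. These had the same dispersion in both groups and no length or GC trend, so the check does not cover those features of the libraries.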

Additional observations from a re-analysis of the deposited data

Results flagged for a closer look

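Single libraries that stood away from the other 3 of their group were looked for in each group of each named gene. In 138 groups 5 were found, and about 6.9 would be found by chance, since chance marks about 1 group in 20. Eef1e1 in PBS replicate 2 had 72.6 CPM, against 64.1 to 64.2 in the other PBS libraries. Eif4g1 in rFSTL1 replicate 4 had 1247 CPM, against 1183 to 1192 in the other rFSTL1 libraries. Eef1g in rFSTL1 replicate 3 had 930.6 CPM, against 893.5 to 899 in the others. Eif4ebp2 in PBS replicate 2 had 136.9 CPM, against 142.9 to 143.5, and Guf1 in rFSTL1 replicate 4 had 70.6 CPM, against 74.4 to 74.7.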

How the results depend on the processing

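The number of members called was 0 or 1 in every alternative run, and the 1 was Eif3k under voom and without rFSTL1 replicate 1 (0 to 1 when 1 library was left out). The median fold change of the members was -0.013 to 0.009 on the log2 scale in all of them. Members with no overlap between groups numbered 1 as reported, 3 with library totals alone, 2 with upper-quartile scaling, 5 with the length and GC trend removed (with or without the replicate block; Eif2a, the reported one, was not among the 5) and 1 to 8 when 1 library was left out, and 9 without rFSTL1 replicates 3 and 4, where fewer samples make a gap easier. Of all tested genes, 4.63% had no overlap with rFSTL1 higher and 3.53% with it lower, as reported. With the length and GC trend removed these shares were 3.11% and 3.71%. They were not computed for the other settings, so those counts have no background beside them. The Eif5a share against Eif5a2 moved by -0.003 percentage points as counts, against -0.001 per length.

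Replicate numbers did not pair the libraries (correlations of deviations -0.034 to 0.014), and the replicate block alone called 0 members. The sign of the fold change turned in 113 of 1242 alternative values of the named genes, and the cause was not tested. With the trend removed, then with the block added, values were -0.031 and -0.033 for Eef1akmt4, 0.013 in both for Eef1b2, 0.041 in both for Eef1e1, -0.013 in both for Eef2, -0.064 and -0.069 for Eefsec, -0.049 and -0.05 for Eif1, 0.057 and 0.058 for Eif1ax, -0.003 and -0.004 for Eif2b1, -0.001 in both for Eif2b4, -0.031 and -0.03 for Eif2b5, 0.035 in both for Eif2s1, -0.006 and -0.007 for Eif3d, 0.003 in both for Eif3e, -0.009 and -0.015 for Eif3f, -0.061 in both for Eif3g, -0.016 and -0.017 for Eif3h, -0.003 and -0.005 for Eif3i, 0.002 and 0.003 for Eif3j2, 0.005 in both for Eif4a2, 0.051 and 0.05 for Eif4e, -0.004 and -0.005 for Eif4h, -0.018 in both for Eif5a and 0.013 in both for Eif5b. Without rFSTL1 replicates 3 and 4, values were 0.04 for Eef1akmt3, -0.081 for Eef1akmt4, 0.017 for Eef1b2, 0.031 for Eef1e1, -0.018 for Eef2, -0.002 for Eef2k, -0.156 for Eef2kmt, -0.147 for Eefsec, 0.015 for Eif1a, -0.01 for Eif1ad, 0.023 for Eif1ax, 0.013 for Eif2ak2, -0.029 for Eif2d, 0.071 for Eif2s1, -0.006 for Eif3d, 0.042 for Eif3e, -0.14 for Eif3f, -0.002 for Eif3i, 0.053 for Eif3j2, -0.001 for Eif4a1, 0.012 for Eif4a2, -0.044 for Eif4ebp2, -0.001 for Eif4h and 0.05 for Eif5b. Leaving out 1 library gave ranges of -0.045 to 0.135 for Eef1akmt2, -0.048 to 0.089 for Eef1akmt4, -0.023 to 0.018 for Eef1b2, -0.027 to 0.043 for Eef1e1, -0.045 to 0.078 for Eefsec, -0.048 to 0.028 for Eif1, -0.009 to 0.031 for Eif2b1, -0.008 to 0.022 for Eif2b5, -0.105 to 0.014 for Eif2s1, -0.011 to 0.094 for Eif2s2, -0.039 to 0.005 for Eif3b, -0.066 to 0.051 for Eif3f, -0.003 to 0.025 for Eif4a1, -0.044 to 0.006 for Eif4enif1 and -0.042 to 0.004 for Eif4g3. Other settings turned only fold changes that were within 0.02 of zero. Eif1 was at -0.002 with DESeq2, with its size factors in edgeR and with no expression filter, and Eif3f at -0.005, -0.004 and -0.004 in the same settings and at -0.004 with the replicate block. Upper-quartile scaling gave 0.009 for Eef1b2, 0.007 for Eef1e1 and 0.004 for Eif3c, and voom 0.007 for Eef1b2 and 0.001 for Eef1g. Precision was lowest for Eef1akmt3, the tested member with the fewest counts, and the 22 untested members had too few counts for a comparison.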
